A study of Mus musculus with 12 samples.

Results

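Cortical thymic epithelial cells (cTEC) from mice that lack MHC class II were compared with the same cells from wild-type mice. The comparison used the 6 libraries labelled as cTEC out of the 12 libraries of the series, 3 from wild-type (WT) and 3 from Aβ0/0 mice, which are labelled AB0 and carry a disrupted H2-Ab1 gene, the gene of the class II β chain. The WT mice were C57BL/6 animals bought from a commercial breeder, whereas the Aβ0/0 mice came from a research institute's colony, and the 2 genotypes were not described as littermates. Each library was a pool of 5 to 10 thymi from mice of 4 to 6 weeks of age, so the spread between libraries is a spread between pools and not between animals. The cells were depleted of CD45+ cells on magnetic beads and sorted as viable Epcam+CD45-Ly51+UEA1- cells, a gate shared by both genotypes. Poly-A RNA was amplified with a low input kit and read as pairs of 50 bases. Where nothing else is said, differences are log2 fold changes of Aβ0/0 over WT with their standard error (SE), levels are CPM, that is counts scaled to the size of the library, over these 6 libraries, and every fold carries n = 3 libraries per genotype.

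cTEC line the thymic cortex and present self peptides on MHC class I and class II to immature CD4+CD8+ thymocytes, a step known as positive selection. A class II molecule is an α and a β chain that pair in the endoplasmic reticulum with the invariant chain Cd74, receive a peptide in an endosome under the control of the DM and DO proteins, and move to the cell surface. Ciita with the RFX and NF-Y proteins switches these genes on. In mice of the C57BL/6 strain the β chain of H2-A, encoded by H2-Ab1, is needed for surface class II, and without it CD4+ T cells are scarce and signals from mature thymocytes to the epithelium are reduced.

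The libraries held between 22758935 and 36139815 estimated counts each. Across genes, the correlation of log2 CPM between libraries ran from 0.808 to 0.951, and the libraries did not order by genotype, since the highest value was between WT 1 and AB0 1 and the lowest between WT 3 and AB0 3. The sort was checked against cTEC genes. Psmb11, the thymoproteasome subunit of the cortex, was at 555 to 1566 CPM, Prss16, a serine protease of the cortex, at 2233 to 6460 CPM, and Foxn1, the master regulator of thymic epithelium, at 79.4 to 303 CPM in the 6 libraries. The 28 gene lists below were drawn up with earlier results from these libraries known, so their counts are given as a description beside the counts over all genes.

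H2-Ab1 itself (chr17:34257689-34269419, mm10, plus strand) was lower in Aβ0/0 cTEC but was not absent. The WT libraries held 6617, 6919 and 10160 CPM and the Aβ0/0 libraries 2181, 3652 and 2693 CPM. The groups did not overlap, and the highest Aβ0/0 library was well below the lowest WT library. The difference was -1.47 (SE 0.34), a level 2.78-fold lower, but in edgeR's quasi-likelihood test its adjusted p was 0.695 (unadjusted p = 0.00161). On the deposited TPM values, which correct for transcript length and are less uneven among the WT libraries, H2-Ab1 was at 9055, 9640 and 9150 TPM in WT against 3153, 3956 and 3491 TPM in Aβ0/0 cTEC. There limma gave a log2 difference of -1.40 (SE 0.187) with an adjusted p of 0.0434. That fit was chosen after the data were seen, and every limma result on TPM below comes from it. DESeq2 on the counts gave an adjusted p of 0.00162. The remaining counts were assigned to the same transcript as in WT: H2-Ab1-201 held 99.75%, 99.92% and 99.78% of the gene's estimated counts in WT and 99.36%, 99.44% and 99.84% in Aβ0/0 libraries. Where in the gene these reads fell cannot be read from values per transcript, so the level of H2-Ab1 RNA says nothing here on the level of the protein.

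The partners of the β chain had levels that overlapped or nearly touched between genotypes. H2-Aa, the α chain that pairs with H2-Ab1, was at 4281, 4614 and 4873 TPM in WT and at 3758, 4439 and 4187 TPM in Aβ0/0 cTEC, which overlap. Cd74 was at 11260, 16350 and 12580 TPM in WT against 14410, 16270 and 16680 TPM. H2-Eb1, the β chain of the second class II molecule, was at 2240 to 2503 TPM in WT and 2143 to 2216 TPM in Aβ0/0 libraries, which just fail to overlap (unadjusted p = 0.576 by limma on TPM). The order of mean TPM in WT ran from Cd74 (13400 ± 2641, SD, n = 3) over H2-Ab1 (9282 ± 314), H2-Aa (4589 ± 297) and H2-Eb1 (2363 ± 132) to the peptide loading chain H2-DMa (592 ± 55.1). In Aβ0/0 cTEC, H2-Ab1 (3533 ± 403) came after H2-Aa (4128 ± 344). Below them in WT stood H2-DMb2 (535 ± 107), which did not differ from H2-DMa beyond its spread, H2-DMb1, H2-Oa, H2-Eb2 and H2-Ob, each with overlapping genotypes.

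**Figure D1:**
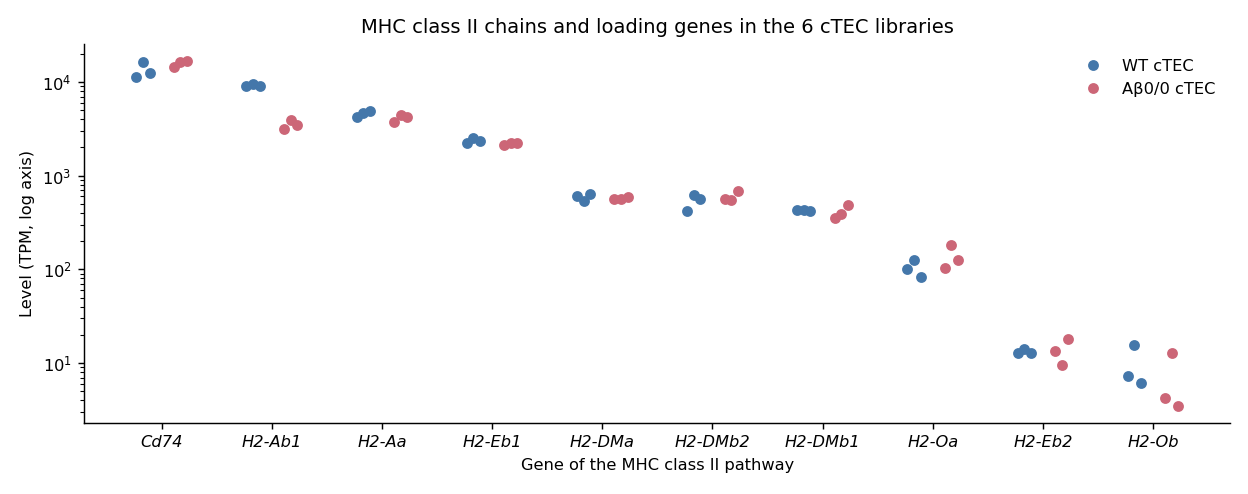
Deposited TPM (log axis) of the class II chains and loading genes in the 6 cTEC libraries, one point per library, by genotype. H2-Ab1 stands apart by genotype, at 9055 to 9640 TPM in WT and 3153 to 3956 TPM in Aβ0/0, and the H2-Eb1 points just fail to overlap.

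Of the 10 chains and loading genes tested, H2-Ab1 alone had an unadjusted p under 0.05 (2 genes without AB0 2), and the median difference of the list was -0.16 with 3 of 10 positive. Without WT 3 the median was 0.09 with 8 of 10 positive, and without AB0 1 it was -0.02. Over all 15432 genes tested, 2.16% had an unadjusted p under 0.05, 44.8% had a positive difference and the median difference was -0.06. Without AB0 1, 1207 of 16310 genes had such a p, against 333 in the fit of all 6 libraries. Counts of list members without AB0 1 are to be read beside that rise. None of the 9 class II regulators tested had such a p (1 of 10, lower, without WT 2), and 0 of 9 differences were positive with a median of -0.19. On the rlog and TPM scales 4 of 9 were positive, with medians of -0.03 and -0.01, and without WT 2 or without AB0 2 there were 3 of 10, with medians of -0.10. Ciita, the class II transactivator, was at 234, 286 and 255 CPM in WT and 262, 207 and 205 CPM in Aβ0/0 cTEC. The lysosomal proteases and inhibitors that trim class II peptides had 0 of 10 below that p. Among them Ctsl, the cathepsin that cuts the invariant chain in cTEC, was at 4030, 5309 and 4322 CPM in WT and 4870, 10120 and 5350 CPM in Aβ0/0, the AB0 2 library standing far above the other 5.

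Across the genome, 3 of 15432 genes passed the edgeR test at an adjusted p under 0.05, which is 0.0194% of those tested, and all 3 rose in Aβ0/0 cTEC. They were Hmga1b, Atp6v0c-ps2 and Gm9825. Hmga1b (chr11:120762794-120764419, mm10, plus strand) is an intronless second copy of Hmga1, a chromatin protein that binds AT-rich DNA. It was at 0 CPM in all 3 WT libraries and at 57.6, 57.3 and 73.0 CPM in Aβ0/0 libraries (adjusted p = 0.00314). Against a floor of 3 counts in each WT library, it was at least 557-fold higher. Leaving out 1 library left 1 call for 5 of the 6 libraries and 3 calls without WT 1, and with the replicate number as a block no gene passed (259 had an unadjusted p under 0.05).

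Atp6v0c-ps2 (chr6:37806086-37806550, plus strand) is a processed pseudogene of Atp6v0c, the proton channel subunit of the vacuolar ATPase. Its WT libraries were at 0, 0.241 and 0.121 CPM and its Aβ0/0 libraries at 53.1, 45.7 and 37.6 CPM (8.43, SE 0.84, adjusted p = 0.0199 by edgeR). Gm9825 (chr6:7982541-7983383, minus strand), a processed pseudogene of the splicing factor gene Rnps1, was at 0.0837, 0 and 0 CPM in WT against 26.6, 28.0 and 27.8 CPM in Aβ0/0, with an adjusted p of 0.0253 by edgeR. With 2 counts over the WT libraries its ratio of pooled counts was 1124, with a 95% Poisson interval of 311 to 9282. The next gene, Gm13443 (chr2:35340409-35340963, plus strand), a processed pseudogene of the glyoxalase gene Glo1, was at 0.126, 0 and 0.0808 CPM against 17.6, 28.2 and 23.7 CPM and just missed the threshold (adjusted p = 0.0619 by edgeR). All 4 thus went from almost no counts in WT to 17.6 CPM or more, with no overlap between genotypes.

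Each of these 4 has a near-identical gene on chromosome 17, the chromosome of H2-Ab1, while the copies themselves lie on chromosomes 11, 6, 6 and 2. Hmga1 (chr17:27556497-27563674) starts 6.70 Mb before H2-Ab1, Glo1 3.66 Mb before it, Rnps1 9.84 Mb and Atp6v0c 10.1 Mb before it. The sequences are shown because so few bases tell a copy from its gene. Hmga1b differs from Hmga1 at 3 of 1602 aligned bases, Atp6v0c-ps2 from Atp6v0c at 1 of 465, Gm9825 from Rnps1 at 5 of 843 and Gm13443 from Glo1 at 3 of 555. Windows around the differing base, which is in capitals, are given 5′ to 3′ on the strand of the gene, from the GENCODE M21 transcripts on GRCm38. The 3 Hmga1 sites lie in the 3′ UTR in exon 5 of 5, at chr17:27562715-27562743, chr17:27562842-27562870 and chr17:27563304-27563332, and the matching sites of Hmga1b at chr11:120763436-120763464, chr11:120763563-120763591 and chr11:120764025-120764053.
Hmga1b, site 1: ttagccgcagcccgGcctgctgcgcacct
Hmga1, site 1: ttagccgcagcccgAcctgctgcgcacct
Hmga1b, site 2: ccttaaggggccccGgccccatctcactc
Hmga1, site 2: ccttaaggggccccAgccccatctcactc
Hmga1b, site 3: ggttgtgttgttttTtttttgttccatgt
Hmga1, site 3: ggttgtgttgttttGtttttgttccatgt

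For Atp6v0c and Rnps1 one site each is shown. The Atp6v0c site lies in coding sequence in exon 3 of 4 (chr17:24164837-24164865, minus strand) and its copy at chr6:37806182-37806210. The Rnps1 site is coding, in exon 5 of 9 (chr17:24420207-24420235, plus strand), with the copy at chr6:7983199-7983227 on the minus strand.
Atp6v0c-ps2: ggcacagccaagagCggcactggcatcgc
Atp6v0c: ggcacagccaagagTggcactggcatcgc
Gm9825, site 1 of 5: tctaggtccagctcAacctccagctcggg
Rnps1: tctaggtccagctcCacctccagctcggg

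Most reads from these transcripts cannot tell copy from gene. Of the 1577 stretches of 50 bases in Hmga1b, 89.0% occur unaltered in Hmga1, and the figure was 88.0% for Atp6v0c-ps2, 72.2% for Gm9825 and 78.5% for Gm13443. The libraries were read in pairs, and a read pair can tell them apart if either read covers a differing base. The share of such read pairs was not counted. Kallisto splits the reads that fit both by those that do differ, so the share of each gene pair that was assigned to the copy is the more telling quantity. Hmga1b took 0% of the estimated counts of its pair in the 3 WT cTEC libraries and 66.9%, 67.9% and 68.0% in Aβ0/0. The medullary libraries of the same genotypes, which played no part in choosing these genes but may come from the same pools of mice, had 1.84% to 5.25% in WT and 63.8% to 70.0% in Aβ0/0. Gm9825 took 0% to 0.0902% of its pair in WT cTEC and 20.3% to 24.7% in Aβ0/0, Atp6v0c-ps2 0% to 0.0723% and 12.6% to 17.6%, and Gm13443 0% to 0.11% and 6.44% to 7.58%. In each pair the Aβ0/0 libraries lay close together and far from WT, and the share moved with genotype in both epithelial subsets.

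**Figure D2:**
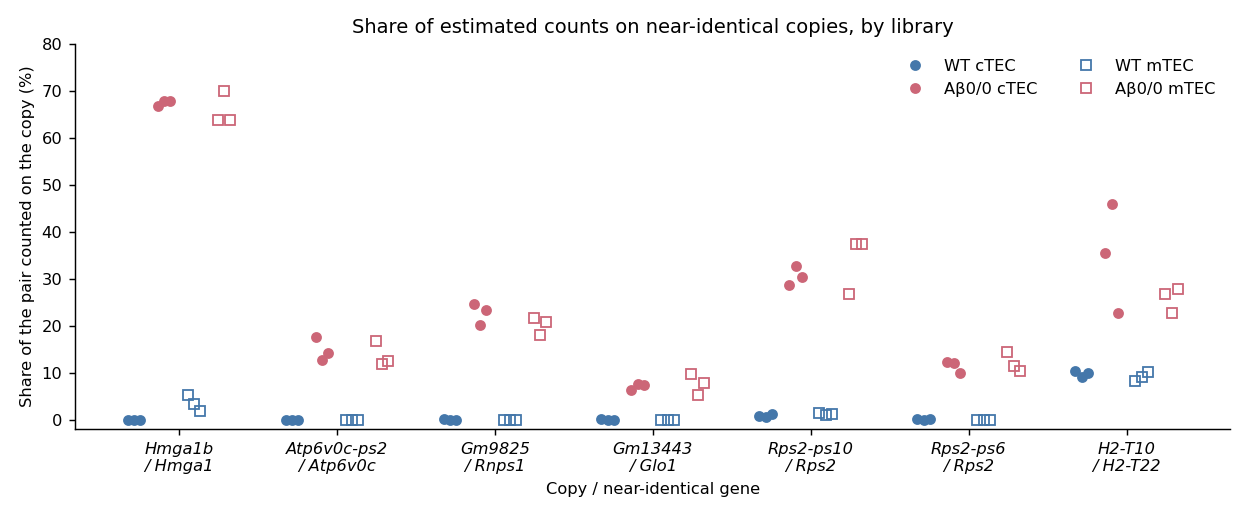
Share of the estimated counts of each pair (copy plus near-identical gene) that was assigned to the copy, in percent, one point per library for cTEC and medullary libraries of both genotypes. The Hmga1b points of Aβ0/0 cTEC lie at 66.9% to 68.0% and those of WT cTEC at 0%.

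When the copy and its gene were added up, the 3 calls were lost and no gene passed the edgeR test (324 genes had an unadjusted p under 0.05). Hmga1 with Hmga1b was at 87.1, 88.5 and 89.1 CPM in WT and 86.1, 84.4 and 107 CPM in Aβ0/0, a difference of 0.07 (unadjusted p = 0.786). Hmga1 alone was at 88.3 ± 1.02 CPM in WT and 30.0 ± 3.89 CPM in Aβ0/0 (SD, n = 3), and its sign turned once the copy was added. The summed difference was -0.29 for Atp6v0c and 0.24 for Rnps1, with overlapping genotypes in both. Glo1 with its copy stayed apart, at 119, 133 and 131 CPM in WT and 272, 372 and 315 CPM in Aβ0/0 (1.33, SE 0.256, unadjusted p = 0.000516, adjusted p = 0.797 by edgeR). In the pairs of the 3 called genes it was the division of the estimated counts between copy and gene that differed, and the totals were not shown to differ.

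Rps2, a ribosomal protein gene 9.54 Mb before H2-Ab1, was the nearest match of the pseudogenes Rps2-ps10 and Rps2-ps6, which have 24 and 25 near-identical genes, so their reads can be shared with many other copies. The first was at 4.94, 3.04 and 16.3 CPM in WT and 103, 214 and 147 CPM in Aβ0/0, and the second at 0.544, 0 and 1.37 CPM against 36.3, 61.1 and 37.6 CPM. Neither passed the edgeR test (adjusted p = 0.19 and 0.483), and both passed limma on the TPM values (adjusted p = 0.00531 and 0.0034). H2-T10 and H2-T22, a pair of nonclassical class I genes 1.86 and 1.78 Mb beyond H2-Ab1, differ from the rest in that both lie on chromosome 17. H2-T10 took 9.15% to 10.5% of that pair in WT and 22.8% to 45.9% in Aβ0/0 cTEC, while the pair's sum differed by -0.06 (unadjusted p = 0.818).

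The share of genes with a small p was higher close to H2-Ab1 on chromosome 17 than on other chromosomes. Within 5 Mb of H2-Ab1, 17 of 217 genes tested had an unadjusted p under 0.05 (7.83%), 13 of them higher and 4 lower in Aβ0/0, against 2.08% of the 14684 genes on other chromosomes. From 5 to 10 Mb the share was 3.42%, from 10 to 20 Mb 1.24%, and beyond 20 Mb on the same chromosome 1.79%. Without AB0 1 the shares were 13.4% within 5 Mb and 7.31% elsewhere. Below an unadjusted p of 0.001 there were 5 of 217 genes within 5 Mb and 13 of 14684 on other chromosomes. These shares are descriptions, since neighbouring genes and near-identical genes are not independent, and none of the 217 genes passed the adjusted threshold of edgeR.

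**Figure D3:**
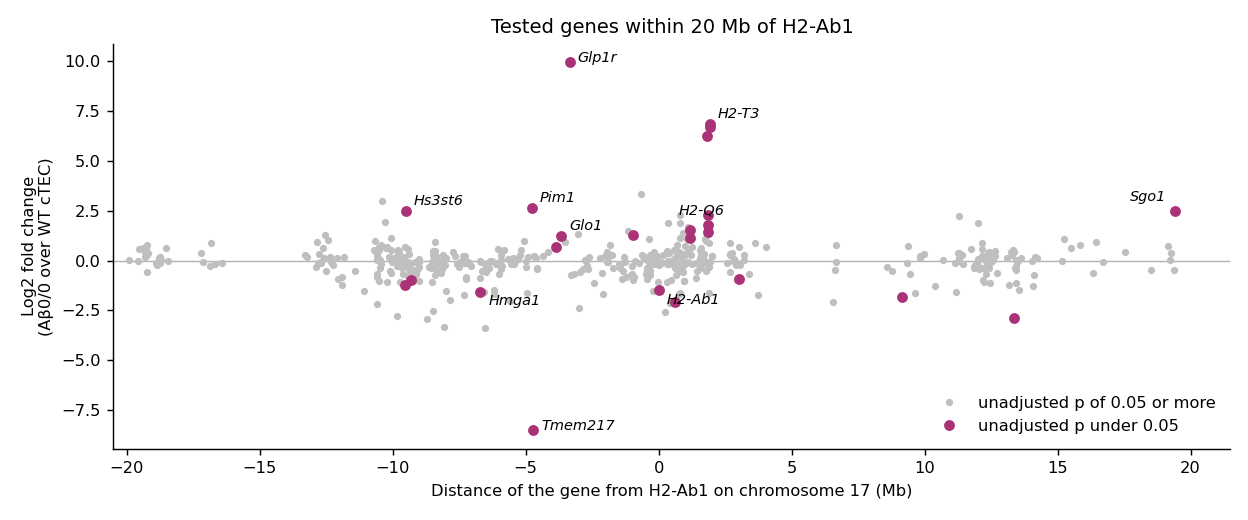
Distance from H2-Ab1 (in Mb) of each gene tested on chromosome 17 within 20 Mb of it against its log2 fold change of Aβ0/0 over WT, with genes under an unadjusted p of 0.05 marked in magenta. Marked genes gather around the position of H2-Ab1, where 17 of 217 genes within 5 Mb are marked.

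Several class I genes of this stretch were higher in Aβ0/0 cTEC. H2-T3, the gene of the thymus leukaemia antigen, was at 0.502, 0.0904 and 0.0404 CPM in WT and 17.1, 36.8 and 18.1 CPM in Aβ0/0 (6.83, SE 1.03). H2-Q6 was at 233, 302 and 227 CPM against 673, 661 and 890 CPM (1.55, SE 0.28), and its neighbour H2-Q7 at 266, 283 and 382 CPM against 577, 670 and 772 CPM (1.12, SE 0.28). In all 3 genes every Aβ0/0 library was above every WT library. H2-T3 passed limma on the TPM values (adjusted p = 0.0267) but not edgeR (adjusted p = 0.19), and H2-Q6 and H2-Q7 passed neither of the 2. All 3 passed DESeq2 on these 6 libraries (adjusted p = 1.86e-13, 4.55e-06 and 0.00217). H2-T3 and H2-Q6 had no near-identical gene at 95% identity, and how reads were divided among less similar class I genes was not tested.

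The classical class I genes of the same complex had overlapping genotypes. H2-K1 was at 3544, 3762 and 4297 CPM in WT and 3307, 3598 and 3375 CPM in Aβ0/0, and H2-D1 was at 4096 to 4792 CPM against 3787 to 4106 CPM. H2-M3, which presents formylated peptides, was lower at 91.3, 87.5 and 110 CPM against 41.6, 51.6 and 61.0 CPM (-0.91, SE 0.28, unadjusted p = 0.0091), with no overlap. Of the 16 class I and peptide loading genes tested, H2-Q7 was higher and H2-M3 lower under an unadjusted p of 0.05 (6.25% each way, against 0.706% higher and 1.45% lower over all genes). The 7 catalytic proteasome subunits and the 24 macroautophagy genes, which feed peptides to class I and class II, had none under that p.

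Genes with no role in presentation were also among those with a small p before H2-Ab1 on chromosome 17, and none of them passed the adjusted test of edgeR. Pim1, a survival kinase gene 4.77 Mb before H2-Ab1, was at 11.4, 6.54 and 13.7 CPM in WT and 80.5, 69.6 and 49.4 CPM in Aβ0/0 (2.66, SE 0.40), a level 6.31-fold higher with an adjusted p of 0.19 by edgeR. Glp1r, the receptor of glucagon-like peptide 1, had no counts in WT and 3.23, 5.71 and 3.24 CPM in Aβ0/0, at least 36.1-fold higher (adjusted p = 0.695 by edgeR). Tmem217 went the other way, with 1.01, 0.843 and 2.71 CPM in WT and none in Aβ0/0 (adjusted p = 0.695 by edgeR). Hs3st6, a heparan sulphate sulphotransferase gene 9.51 Mb before H2-Ab1, was at 2.05, 6.99 and 13.4 CPM against 32.2, 54.8 and 39.1 CPM (adjusted p = 0.763 by edgeR). Each of these had separate genotypes, and each was named after its values were seen, save Pim1.

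The other 3 genes set as markers of this comparison were Cd40, Ccl9 and Ptprc. Cd40, a TNF receptor family member through which thymocytes signal to epithelium, was at 18.0, 14.4 and 12.5 CPM in WT and 35.1, 63.1 and 24.5 CPM in Aβ0/0 cTEC (1.45, SE 0.44, unadjusted p = 0.00854). Ccl9, a chemokine gene, was at 3.64, 8.28 and 8.60 CPM against 0.412, 0.476 and 0.622 CPM (-3.75, SE 1.05, unadjusted p = 0.00563). Ptprc, the gene of CD45, was at 45.8, 28.3 and 22.9 CPM against 95.9, 63.7 and 101 CPM (1.43, SE 0.35, unadjusted p = 0.00275). For all 3 the genotypes did not overlap, as was true of 7.83% of all genes tested. None passed the adjusted test of edgeR, while Ccl9 and Ptprc passed DESeq2 on these 6 libraries (adjusted p = 4.24e-06 and 0.0278) and Cd40 did not (adjusted p = 0.0953). With DESeq2 on all 12 libraries, Ccl9 and Cd40 passed (adjusted p = 8.57e-13 and 0.0481) and Ptprc did not (adjusted p = 0.123).

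**Figure D4:**
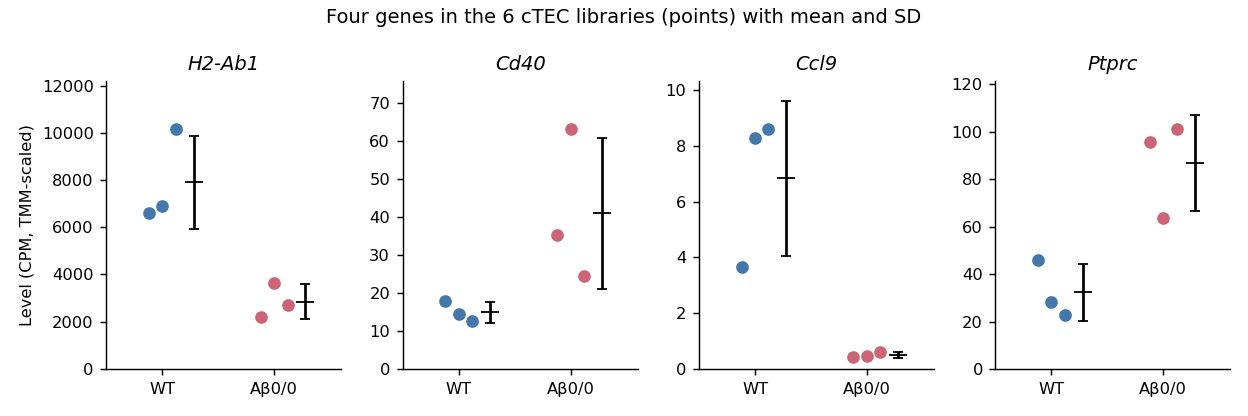
CPM of H2-Ab1, Cd40, Ccl9 and Ptprc in the 6 cTEC libraries, one panel per gene, with points for libraries and, beside them, the mean and SD of 3. Cd40 and Ptprc points of Aβ0/0 lie above those of WT, and H2-Ab1 and Ccl9 points below.

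Ptprc belongs to the thymocyte genes, and the sort was for CD45- cells. Of 28 thymocyte genes tested, 26 had a positive difference and 6 had an unadjusted p under 0.05, all 6 higher (21.4%, against 0.706% higher over all genes), and none passed the adjusted test of edgeR. The median difference was 0.61, and 8 of the 28 were higher without overlap (28.6%, against 3.3% over all genes). Those under that p were Ptprc, Arpp21, Dntt, Cd3e, Cd8a and Lck. Dntt, which adds bases at T cell receptor joints, was at 85.6, 75.2 and 33.0 CPM in WT and 126, 140 and 122 CPM in Aβ0/0, and Cd8a was at 89.6, 66.3 and 55.3 CPM against 98.9, 151 and 102 CPM. The CPM summed over the list, on plain library totals, ran from 925 to 1808 in WT and from 1946 to 2636 in Aβ0/0, and no member was at 0 in all 6 libraries. Rag1 (0.31) and Cd4 (0.48) had overlapping genotypes. In bulk libraries of this kind more cells of a type and more RNA per cell cannot be told apart. Without AB0 2, 1 gene was under that p and the median was 0.44, and without WT 3 there were 3 and the median was 0.38.

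Dendritic cells, macrophages and B cells also carry Cd40. Among dendritic, macrophage and B cell genes, 4 of 14 tested had a positive difference (2 of 16 without AB0 2, 2 of 15 without WT 1 and 7 of 18 without AB0 1), and the list sum was 169 to 366 CPM in WT and 70.1 to 142 CPM in Aβ0/0. The highest sum was that of WT 1, where Lyz2 was at 283.9 CPM. Lyz2 and Cd68 were lower under an unadjusted p of 0.05 (2 of 14 or 14.3%, against 1.45% lower over all genes). There was 1 such gene without WT 1 or AB0 2, 3 without AB0 3 and 4 without AB0 1. Clec9a, a dendritic cell gene, was at 0 in all 6 libraries. The part of these cells in the level of Cd40 was not tested. Within the TNF receptor and NF-κB genes, Cd40 and the adaptor Traf2 were the 2 of 33 under an unadjusted p of 0.05, both higher (6.06%, against 0.706% higher over all genes). Neither was under that p without AB0 2, and 1 was without WT 1, WT 3, AB0 1 or AB0 3. Traf2 was at 57.3, 62.5 and 48.9 CPM in WT and 77.5, 100 and 82.3 CPM in Aβ0/0. The noncanonical genes Relb (0.25), Nfkb2 (0.16) and Map3k14 (-0.51), the receptor Ltbr (0.33) and the RANK gene Tnfrsf11a (-0.53) had overlapping genotypes. The 11 costimulatory and coinhibitory ligands tested had none under that p, and 2 lower without AB0 1.

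The chemokine and interferon-stimulated genes under an unadjusted p of 0.05 were lower in Aβ0/0, and none passed the adjusted test of edgeR. Of 26 chemokine ligands, Ccl9, Ccl11 and Cxcl9 were under an unadjusted p of 0.05, all lower (11.5%, against 1.45% lower over all genes), and without AB0 1, AB0 2 or AB0 3 there were 5, 6 and 5 lower. Without AB0 1, AB0 2 or WT 1, 1 chemokine gene was higher under that p. Ccl11, which draws eosinophils, was at 70.4, 68.9 and 76.9 CPM in WT and 9.99, 42.5 and 17.7 CPM in Aβ0/0. The macrophage genes Lyz2 (283.9, 68.1 and 38.4 against 5.49, 39.2 and 27.5 CPM) and Cd68 were lower as well, and their part in the level of Ccl9 was not tested. By contrast Ccl25, which attracts thymocyte progenitors to the cortex, was at 1259, 1544 and 1807 CPM in WT and 1477, 4761 and 1747 CPM in Aβ0/0, and Cxcl12 was at 1384 to 2084 against 1720 to 2775 CPM. Among the 20 niche ligands of cTEC, which include these, Dll4 and Il7, 0 were under that p. With a library left out there were 2 lower without WT 1, 2 lower and 1 higher without AB0 1, 1 higher without WT 2 and 1 lower without AB0 3.

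Of 36 interferon-stimulated genes, 8 had a positive difference, 3 were lower under an unadjusted p of 0.05 (8.33%, against 1.45% lower over all genes) and 7 were lower without overlap (19.4%, against 4.54% over all genes). The 3 were Oas3, Oas2 and Gbp7. Without AB0 3, 1 was lower under that p, without WT 2 or WT 3 there were 2 and without WT 1 there were 4. Without WT 2, 13 of 36 differences were positive, and 1 gene was higher under that p without WT 2 or AB0 2. Oas3, a sensor of double-stranded RNA, was at 24.2, 23.6 and 31.6 CPM in WT and 9.85, 8.18 and 9.81 CPM in Aβ0/0 (-1.51, SE 0.42), and it passed DESeq2 on these libraries (adjusted p = 0.000175). Oas2 was at 33.5, 61.3 and 29.5 CPM against 14.2, 0.476 and 3.24 CPM. Isg15 was at 363, 343 and 826 CPM against 280, 326 and 282 CPM, where WT 3 alone made most of the difference of the means. The regulator Irf1 alone was higher without overlap (2.78%, against 3.3% over all genes).

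Genes that define cTEC were expressed in both genotypes. Of 19 cTEC identity genes, 0 had an unadjusted p under 0.05 (1 higher without WT 2), 14 had a positive difference and the median was 0.39. The simple keratins Krt8 and Krt18 were higher without overlap, at 2693, 2897 and 1887 CPM in WT against 3280, 4284 and 3155 CPM for Krt8, and Epcam and Six4 were lower without overlap (2 of 19 or 10.5% each way, against 3.3% higher and 4.54% lower over all genes). Psmb11, Prss16 and Ctsl were all highest in AB0 2, and without that library 11 of 19 differences were positive and the median was 0.06. Of 32 cell cycle genes, 27 had a positive difference with a median of 0.40, and Ube2c, of the anaphase promoting machinery, was the 1 gene under an unadjusted p of 0.05 (3.12%, against 0.706% higher over all genes) at 33.1, 32.5 and 35.2 CPM in WT against 35.3, 119 and 60.7 CPM. None was under that p without WT 1, WT 3 or AB0 2 or with the replicate block, and there were 3 without AB0 1. Without AB0 2, 21 of 32 were positive with a median of 0.07, and without WT 3, 25 were positive with a median of 0.23. Thymocytes divide too, and the part of their genes in this list was not tested.

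**Figure D5:**
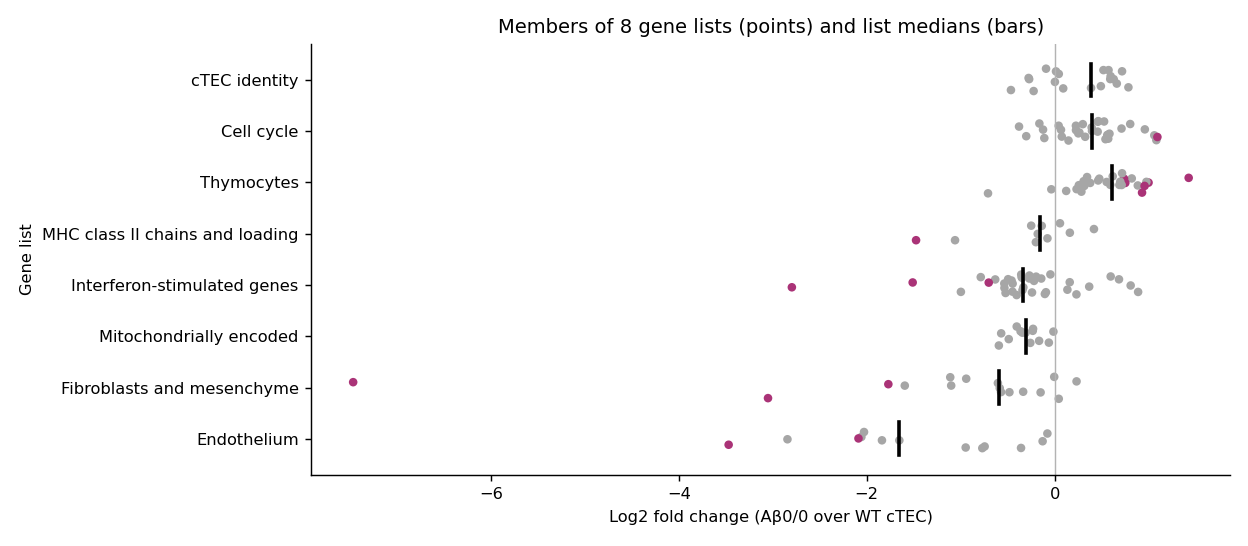
Log2 fold change of Aβ0/0 over WT for each gene tested in 8 of the 28 lists, one point per gene, with the list median as a bar and genes under an unadjusted p of 0.05 in magenta. The thymocyte list has its median at 0.61 and the endothelium list at -1.65 in the edgeR fit shown.

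The genes with the smallest p among those lower in Aβ0/0 were mostly of low level in WT and near 0 in the mutant. Pdgfrb, the platelet-derived growth factor receptor of pericytes and fibroblasts, was at 4.94, 15.4 and 9.45 CPM in WT and 0.103, 0.0298 and 0.027 CPM in Aβ0/0 (-7.47, SE 1.23, adjusted p = 0.319 by edgeR). The pericyte gene Rgs5 was at 55.6, 157 and 64.5 CPM against 4.53, 6.10 and 22.7 CPM, and Col3a1, a fibrillar collagen of fibroblasts, was at 278, 402 and 134 CPM against 103, 51.9 and 83.6 CPM. These 3 were the members of the 16 fibroblast and mesenchyme genes under an unadjusted p of 0.05 (18.8%, against 1.45% lower over all genes; 6 without AB0 1), whereas Dcn, the proteoglycan decorin, was at 2128 to 2620 CPM against 2112 to 2751 CPM. The list sum was 3325 to 4359 CPM in WT and 2830 to 3642 CPM in Aβ0/0.

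Of 13 endothelial genes, 2 were lower under an unadjusted p of 0.05 (15.4%, against 1.45% lower over all genes) and none passed the adjusted test of edgeR. All 13 had a negative difference in edgeR on the 6 libraries, 6 of 13 without overlap (46.2%, against 4.54% lower over all genes), with a median of -1.65 and list sums of 89.6 to 215 CPM in WT and 45.8 to 69.6 CPM in Aβ0/0. Cdh5, the cadherin of endothelial junctions, was at 2.68, 15.1 and 4.28 CPM against 0.824, 0.535 and 0.622 CPM. The 2 genes under that p were Cdh5 and Plvap, the latter of fenestrated vessels. WT 2 was the highest library for both, and without it no endothelial gene was under that p, 2 of 13 differences were positive and the median was -1.01, while leaving out any other library left 1 to 3 genes. Without AB0 1, 2 differences were positive, and without WT 1 there was 1. The median was -0.51 with 2 positive on the rlog scale and -0.77 with 1 positive on the TPM scale. Wnt11, a secreted ligand, was at 2.93, 16.4 and 5.17 CPM in WT and 0, 0.0595 and 0 CPM in Aβ0/0. The part of vessel and mesenchymal RNA in the values of Pdgfrb and Wnt11 was not tested.

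Scgb3a2, Scgb3a1, Sntn and Tmem212 were also among the 10 lower genes with the smallest p. Scgb3a2, a secretoglobin of airway secretory cells, was at 6.24, 3.25 and 4.40 CPM in WT and 0, 0 and 0.027 CPM in Aβ0/0, and its relative Scgb3a1 was at 5.32, 1.51 and 5.33 CPM against no counts, at least 44.5-fold lower. Sntn, a gene of motile cilia, was at 2.34, 2.68 and 4.04 CPM against 0, 0.0298 and 0 CPM, and Tmem212 was at 3.43, 6.57 and 6.67 CPM against 0, 0 and 0.027 CPM. Scgb3a2 and Tmem212 passed limma on the TPM values (adjusted p = 0.0457 and 0.0483) but not edgeR (adjusted p = 0.66 and 0.523), and Scgb3a1 and Sntn passed neither (adjusted p = 0.695 for both by edgeR). Aire, the medullary regulator of tissue-restricted genes, was at 3.85, 12.3 and 5.37 CPM in WT and 1.37, 0.476 and 0.243 CPM in Aβ0/0 (-3.36, SE 1.15, unadjusted p = 0.0164). Among the 20 medullary genes tested, 6 had a positive difference and the median was -0.44 (from -0.75 without AB0 1 to -0.24 without WT 1), with list sums of 2216 to 2666 CPM in WT and 1826 to 2651 CPM in Aβ0/0. Krt5 (-0.35) and Krt14 (-0.06), keratins of the medulla, overlapped, and the part of medullary cells in these values was not tested.

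The other genes of that group were Wdfy1, 2610028H24Rik and Gm12222. Wdfy1, an endosomal adaptor, was at 55.3, 77.1 and 52.7 CPM in WT and 21.6, 12.9 and 18.9 CPM in Aβ0/0, 3.47-fold lower (-1.80, SE 0.35, adjusted p = 0.611 by edgeR) and the most abundant of the 10 after Hmga1. 2610028H24Rik was at 2.05 to 6.81 CPM in WT with no counts in Aβ0/0, and the pseudogene Gm12222 was at 3.81 to 13.5 CPM against 0 to 0.0343 CPM. All 3 had separate genotypes.

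In the remaining lists no gene passed the adjusted test of edgeR. Of 33 metallopeptidases and inhibitors, Timp4, Adam28 and Mmp19 were under an unadjusted p of 0.05 and 6 were lower without overlap (18.2%, against 4.54% over all genes). The share under that p was 9.09%, against 1.45% lower over all genes, and 1 gene was lower under it without WT 1, WT 2 or AB0 2 and 5 without AB0 1, with 1 more gene higher without WT 2. The median was -0.23, and ran from -0.45 without AB0 1 to -0.03 without AB0 2. Timp4, an inhibitor of matrix metalloproteinases, was at 8.42, 8.19 and 5.21 CPM in WT and 0.481, 0 and 0.108 CPM in Aβ0/0. Nid1 and Sparcl1 were lower under that p among 31 basement membrane and matrix genes (6.45%, against 1.45% over all genes, median -0.21). None was lower under it without WT 2, where 11 of 31 were positive, or in edgeR or DESeq2 on all 12 libraries. Without AB0 2 none was either, 17 of 31 were positive and the median was 0.04, and without AB0 1 there were 6 lower with a median of -0.48. In the fit without AB0 1, 1207 of all 16310 genes tested were under that p. Vim was the 1 gene lower under that p among 43 actin, tubulin and filament genes (2.33%, near the 1.45% over all genes), but without WT 2, WT 3 or AB0 2 none was lower, and without AB0 1 there were 3 higher. Apoc1 was lower among 29 lipid genes (3.45%, against 1.45% lower over all genes), with 3 lower without AB0 1 and 2 lower without WT 3 or AB0 3. Btg2 was higher among 31 immediate early and stress genes (3.23%, against 0.706% higher over all genes), with 2 higher without WT 1 and 2 lower without WT 2. Glycolysis had 16 of 19 positive differences with none under that p, and the 15 Bcl2 family genes had none, or 1 higher without WT 3. All 13 mitochondrially encoded genes had a negative difference (median -0.31), but without WT 3 all 13 were positive with a median of 0.50, and without AB0 1 there were 6 with a median of -0.06. Erythroid genes (5 tested, median -1.42) summed to 503 CPM in WT 1 and 170 CPM in AB0 2 and to at most 19.5 CPM in the other libraries. Without WT 1 their median was 2.50 with 4 of 5 positive, and without AB0 2 it was -6.78. Granulocyte genes (6 tested, median -1.13, and -3.29 to -0.49 with a library left out) were highest in WT 1, where the granulocyte gene Mpo was at 71.0 CPM against at most 0.485 CPM in any other library. Mpo and Lcn2 were lower under an unadjusted p of 0.05 (2 of 6 or 33.3%, against 1.45% lower over all genes). There were 4 of 8 without WT 2 or AB0 2, and 1 of 6 without WT 1 or WT 3.

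The extent of the difference depended on the model. DESeq2 on the same 6 libraries called 123 of 18030 genes (0.682%), 31 higher (0.172%) and 92 lower (0.51%), where edgeR called 3, and limma on the TPM values called 13 of 15432 (0.0842%), 8 higher (0.0518%) and 5 lower (0.0324%). DESeq2 with the medullary libraries in the fit called 356 of 20041 genes (1.78%), 83 higher (0.414%) and 273 lower (1.36%). Of the 24 genes chosen by rule, edgeR called 3, limma on TPM 11 and either DESeq2 fit 23. The rule took most of these genes for a small edgeR p in the same libraries. A pass in another fit is therefore not separate evidence for them. The 3 genes called by edgeR were among the 13 of limma. H2-Ab1 was among the 5 that fell by limma on TPM, with Gm12222, Plac9b, Scgb3a2 and Tmem212, of which Plac9b was named after its values were seen.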

How the data were processed

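The authors amplified poly-A RNA of sorted cells with the SMART-Seq v4 kit, sequenced 50-base pairs on a HiSeq 3000 and estimated transcript abundance with kallisto. Their processing notes name bcl2fastq 2.20.0, Trim Galore, kallisto 0.43, DESeq2 and the mm10 build. The deposited values are estimated counts per transcript, which need not be whole, the TPM that the authors' kallisto run derived from them and from transcript length, and a table of regularized log2 values (rlog) that the authors made over all 12 libraries. Whether strand was used is not given in the sources used here.

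GENCODE M21 on GRCm38 held the identifiers of 107987 of the 109282 transcripts; the other 1295, with 0.45% to 0.512% of a cTEC library's estimated counts, were not used. Summing per gene and rounding gave values for 34547 genes. The genotypes were compared over the 6 cTEC libraries with edgeR 4.0.16 in R 4.3.3 (quasi-likelihood test, robust, TMM, filterByExpr), with Benjamini-Hochberg adjusted p values, two-sided, and a threshold of 0.05. CPM are scaled by TMM over these libraries, list sums are on plain totals, and a group with no counts was given a floor of 3 counts in each library, and one with 1 to 3 counts in all a ratio of pooled counts with its interval. Intervals and floors cover counting error only. A small estimated count can come from reads shared with a near-identical gene.

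The genes named by rule were the 4 markers of the comparison, all genes called, and the 10 with the smallest p in each direction with a mean of at least 1 CPM in the higher group. Near-identical genes were sought with BLAST 2.17.0 (at least 95% identity over 80% of the transcript) for these genes save the 4 markers, which were not searched. The members and the 28 lists were chosen with earlier results of these data known. Alternatives were DESeq2 1.42.0 on 6 and on 12 libraries, edgeR on 12, other size factors and filters, summed copies, limma 3.58.1 on the rlog values, a block on the replicate number, each library left out, and limma on log2 of TPM plus 1, which was chosen after seeing the data. The edgeR and limma fits were tested on simulated data. The study lists the yields of cTEC and mTEC together for each replicate, so the fits on 12 libraries may hold pairs of libraries from 1 pool of mice. Python 3.11.15 with pandas 2.3.3, numpy 2.4.6, scipy 1.17.1 and matplotlib 3.10.9 was used for the other steps.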

Additional observations from a re-analysis of the deposited data

How the results depend on the processing

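Of the results of the genotype comparison, the number of genes called was the one most changed by the method. It was 3 with edgeR on the 6 libraries and with RLE size factors, 123 with DESeq2 on the 6 libraries (25.2% of them higher in Aβ0/0), 356 with DESeq2 on all 12 (23.3%), 16 with edgeR on all 12 (43.8%), 7 without a filter on low counts, 1 with limma on the rlog values and 13 with limma on TPM (61.5%), against 100% higher of the 3. It was 0 with the copies summed, and 1 to 3 with a library left out. Of the 24 genes named by rule, 3 passed with edgeR, 23 with either DESeq2 fit, 8 with edgeR on 12 libraries, 7 without a filter, 1 on rlog (22 tested), 11 on TPM, 0 with the copies summed (17 tested) and 1 to 3 with a library left out. Lists with a positive median numbered 11 of 28, and 10 to 14 under the alternatives. The share of genes under an unadjusted p of 0.05 within 5 Mb of H2-Ab1 was 7.83%, and 6.75% to 13.4% under the alternatives. With the copies summed, the sign turned for Hmga1 (0.0697) and Rnps1 (0.24). It turned for none of the other genes that were called, chosen by rule or named for an unadjusted p under 0.05. Most of those genes were picked for a small p on the same counts. Neither a kept sign nor a pass in another fit is therefore separate evidence for them. Genes named for their level alone were not followed one by one, and several of the class II list turned without WT 3. The cause of these shifts was not tested, other than that summing removes the copies by construction.

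The replicate numbers were not taken to pair the libraries, since no label ties a number to a shared sort of both genotypes, although the study lists its sorts by replicate number. Deviations of same-numbered WT and Aβ0/0 libraries correlated at 0.263, -0.0695 and 0.0545. With the number as a block, 0 genes passed edgeR (259 had an unadjusted p under 0.05), and 0 of the 24 named genes.

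With 3 pools per genotype, genes near 0 in one genotype have wide errors, and a gene that missed the threshold is not shown to be level. No read depth per animal, strand or position within a transcript was used here.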
